A study of Mus musculus x Rattus norvegicus with 2 samples.

Results

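Rat and mouse fibroblasts from the same library of mouse-rat chimeric lung were compared gene by gene. They were taken from the control library only and were chosen by the RNA levels of a few marker genes. A barcode was kept if it had at least 500 genes and no more than 20% of its unique molecular identifiers (UMIs, each a counted RNA molecule) on mitochondrial genes. It was called mouse when 90% or more of its UMIs fell on mouse genes and rat when 10% or less did. A fibroblast had, on the genes of its own species, 30 or more UMIs of Col1a1, Col1a2 and Col3a1 together and 2 or fewer of the epithelial gene Epcam. It also had 2 or fewer of the endothelial genes Cdh5 and Pecam1 together and under 10 of the muscle genes Actg2, Myh11 and Cnn1 together. This gate held 146 rat and 2193 mouse cells, 2339 of the 9021 kept barcodes of the control library and of 18011 in the whole series. The values that chose the cells were those of these collagen, epithelial, endothelial and muscle genes, so their levels are given below as a description only.

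The series held 1 droplet library per group, prepared from embryonic lung at E20.5 with the 10x 3' v3 chemistry. The control lung used here was chimeric, with mouse cells and cells of a wild-type rat. The other group, from an Nkx2-1-/- rat, was not used beyond the count of kept barcodes. The strains named were C57BL/6 and SD for both groups. How many embryos went into the library was not given, so nothing below has a replicate check, and no p-value was computed. Intervals are 95% and hold counting error only, since cells drawn from the same library do not replicate it.

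Lung fibroblasts make the collagens and elastic fibres of the alveolar wall and send signals to the epithelium beside them. Tcf21 marks the alveolar fibroblast lineage, in which lipid-storing cells lie, and Pdgfra marks the myofibroblasts that lay down elastin as air sacs form. Adventitial fibroblasts surround the larger vessels and airways, and pericytes wrap the capillaries. In an interspecies chimera both species' cells form the same tissue and share its fluid and signals, so their RNA can be set side by side within a library.

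The fibroblast gate took 20.1% of the 725 kept rat cells (95% interval 17.3 to 23.2, exact Clopper-Pearson) and 29.6% of the 7414 kept mouse cells (28.5 to 30.6). Rat cells were 6.24% of the gated fibroblasts (5.30 to 7.30). Species limits of 95% and 5% left 25 rat and 2176 mouse fibroblasts, so this share depends on the limit. How many of the 882 barcodes mixed in species held rat fibroblasts was not tested. No rat gene in the file was named Col1a2 or Pecam1, so a rat cell passed on Col1a1, Col3a1 and Cdh5 alone. With those 2 symbols dropped for both species the gate held 146 rat and 1191 mouse cells, and the rat share was 10.9% (9.30 to 12.7). The threshold cut through a continuous range. In the rat, 34 cells had a collagen sum of 30 to 34 and 28 cells just missed it at 25 to 29, and in the mouse these counts were 326 and 310. The median collagen sum of gated cells was 42 UMIs in rat, on Col1a1 and Col3a1 only, and 46 in mouse, with Col1a2 included.

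The 2 populations were of like depth. The median was 10038 UMIs of their own species in rat fibroblasts (3849 to 27156) and 10100 in mouse fibroblasts (2660 to 92598). The library as deposited held 11129 barcodes and 123047433 UMIs, and 47 barcodes, 8 of them fibroblasts, also occurred in the other library. The median share of mitochondrial UMIs was 5.63% in rat and 3.08% in mouse cells. RNA of the other species made up a median of 6.22% of UMIs in rat fibroblast droplets and 0.699% in mouse fibroblast droplets. EGFP, a reporter counted among the mouse genes, had a mean of 67.2 UMIs in mouse fibroblasts and was detected in every one (2 to 766). In droplets of rat fibroblasts its mean was 1.6 UMIs (0 to 13), and 101 of 146 had at least 1.

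The markers of the label were present in both species. Col1a1, the main chain of type I collagen, was at 2745 counts per 1000000 own-species UMIs (CPM) in rat and 1798 CPM in mouse fibroblasts. Col3a1, the type III collagen chain, was at 3319 and 1692 CPM. The log2 differences of Col1a1 and Col3a1 were 0.61 and 0.97, and 0.27 and 0.70 with the same gate genes for both species. Tcf21, which the gate did not use, was at 319 CPM in rat (292 to 348) and 436 CPM in mouse cells (428 to 444). With every cell thinned to 5000 UMIs, 56.0% of 141 rat cells (47.4 to 64.4) and 74.0% of 2115 mouse cells (72.1 to 75.9) had a Tcf21 UMI. The unthinned shares were 78.1% and 86.3%. In the epithelial cells of the same library, at least 3 UMIs of Epcam with the collagen sum under 30, the thinned Tcf21 share was 0.48% in rat and 1.66% in mouse. Those cells were deeper, with medians of 15429 and 16745 UMIs. The Tcf21 share of fibroblasts was thus far above that in epithelium for both species.

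Markers of other cells were set beside the label. Of 13 epithelial markers 5 were measured, none at least 2-fold higher in rat and 3 in mouse, with summed levels of 33.6 CPM in rat and 355 CPM in mouse fibroblasts. Sftpc, the surfactant gene of alveolar type II cells, was 240 CPM of the mouse sum, and mouse Sftpc in rat droplets reached 96.9% of its level in mouse ones. The endothelial list summed to 188 CPM in rat and 161 CPM in mouse (5 of 12 measured, 0 higher in rat, 1 in mouse, median log2 difference 0.91). The immune list summed to 6.46 and 57.0 CPM, with 1 of 11 measured, Lyz2, on the mouse side. The neural and Schwann list summed to 72.3 and 120 CPM, with 1 of 9 measured and none past 2-fold. The mesothelial list summed to 89.1 and 179 CPM (3 of 9 measured, 1 higher in rat and 1 in mouse, median -0.42). Its keratin Krt19 was at 0 in rat cells and at 35.4 CPM in mouse, at least 18.2-fold lower in rat at a floor of 3 counts over the group. The red cell list summed to 58.1 and 1067 CPM, with all 3 measured globin genes at least 2-fold higher in mouse (median -2.73). Of these, Hba-a1 was found in 33.6% of rat and 26.9% of mouse cells. Its 90th percentile in mouse cells was 116 CPM and its highest mouse cell had 56416 CPM. With the mouse RNA found in rat droplets subtracted Sftpc was at -0.65 in place of -3.62, short of 2-fold. The part of these cells' RNA in the other differences below was tested only as far as values without marker-bearing cells or without free RNA are given.

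Over all genes, more were higher in mouse than in rat. The comparison ran over the 8218 symbols found in both gene sets that had at least 20 UMIs in each species' kept barcodes and 10 CPM in either species' fibroblasts. The difference is the log2 of rat over mouse after adding 10 CPM to both, which understates the change of low genes. At the 2-fold line, 549 genes (6.68%) were higher in rat and 1140 (13.9%) were higher in mouse, 20.6% in all. The median log2 difference was -0.11, with quartiles of -0.63 and 0.35. These shares and this median are the background for the counts and median of every gene list below. A rat and a mouse gene of one symbol differ in sequence and in how completely they are annotated, and that cannot be told apart from a difference in RNA in fibroblasts alone.

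**Figure D1:**
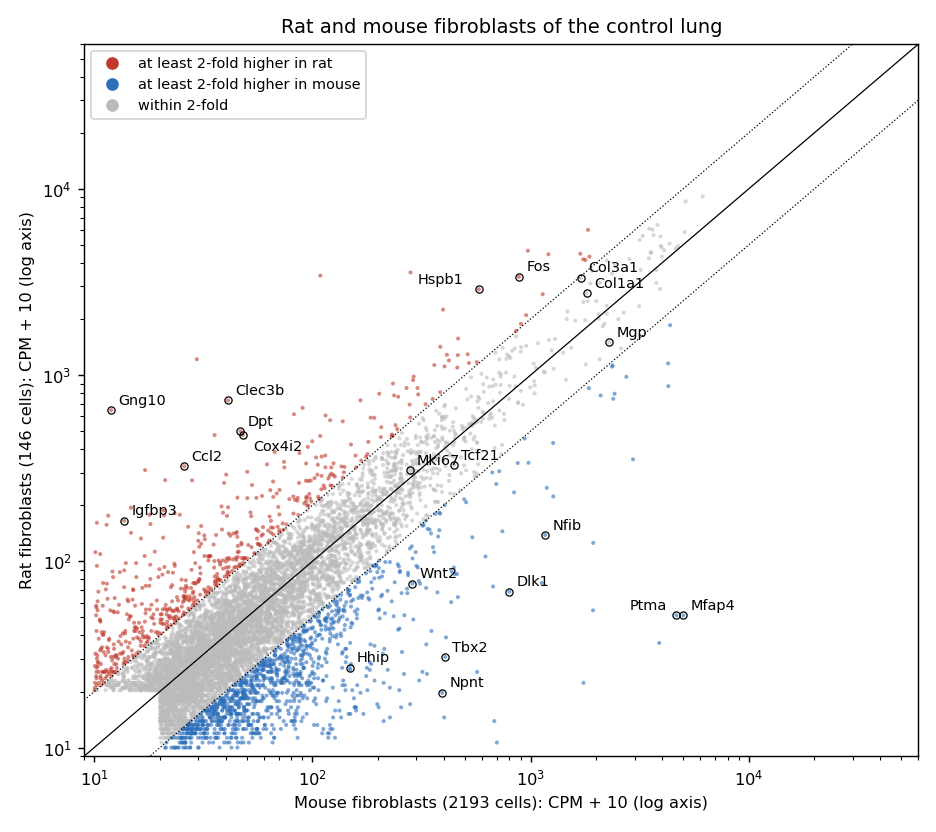
Each point is 1 of 8218 genes, by its level in mouse fibroblasts (x axis) and rat fibroblasts (y axis), in CPM + 10 on log axes. Dotted lines mark 2-fold; Clec3b, Dpt and Ccl2 lie above the upper line, Mfap4, Tbx2 and Wnt2 below the lower one, and Mki67 and Tcf21 lie between the lines.

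The same species difference was therefore read in 2 other gates of the control lung. These were epithelial cells (218 rat, 803 mouse) and smooth muscle cells (135 rat, 395 mouse, at least 10 UMIs of Actg2, Myh11 and Cnn1 together). Thinned, 11.6% of rat and 83.7% of mouse epithelial cells had a Krt19 UMI. The 2 species' epithelial gates may thus hold unlike cells, and the part of this in the epithelial values was not tested. Of 261 genes higher in rat fibroblasts and expressed in epithelium too, 169 (64.8%) were at least 2-fold higher in rat epithelium, against 10.6% of all 2831 genes compared. Of 383 genes higher in mouse fibroblasts, 294 (76.8%) were also higher in mouse epithelium, against 12.9% of all. In smooth muscle the shares were 65.8% (192 of 292) and 78.2% (406 of 519), against 8.73% and 15.4% of 3196 genes. Most calls that could be followed thus recurred in cells of another kind. The difference in fibroblasts passed that in epithelium by 2-fold or more on the rat side for 71 genes (2.51%) and on the mouse side for 107 (3.78%).

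**Figure D2:**
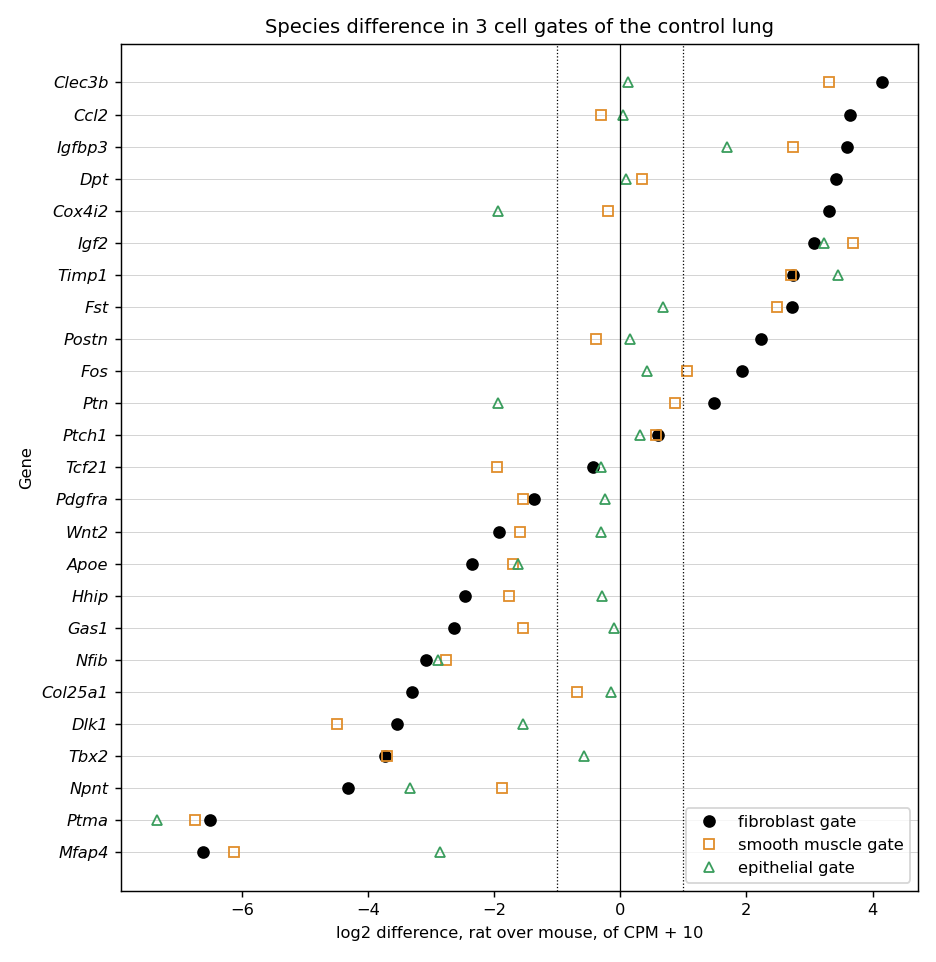
The log2 difference of rat over mouse (x axis) is shown for each of 25 genes in the fibroblast (filled), smooth muscle (square) and epithelial (triangle) gates of the control lung; dotted lines mark 2-fold. Ptma, Nfib and Timp1 lie close together in all 3 gates, while Dpt and Ccl2 are past 2-fold only for the fibroblast gate and Tbx2 for the fibroblast and smooth muscle gates. Few epithelial cells had a UMI of Dpt or Ccl2, so their epithelial values could hardly leave 0.

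Genes of the alveolar fibroblast program were mostly higher in mouse. Of 13 markers 10 were measured, 6 at least 2-fold higher in mouse and 1 in rat, with a median log2 difference of -1.34. The median of these genes was -0.79 in the smooth muscle gate and -0.30 in epithelium. Members nearly absent from epithelium, such as Tcf21 with thinned shares of 0.48% in rat and 1.66% in mouse, could hardly leave 0 there. Others were not absent, such as Limch1 with 9.66% and 42.4%. Mfap4, a microfibril-associated glycoprotein of elastic fibres, was at 41.3 CPM in rat (31.8 to 52.8) and 5014 CPM in mouse fibroblasts (4986 to 5042), a difference of -6.61. Its mouse gene lies on chromosome 11 at 61485431 to 61488900 of mm10. It was the lowest of the genes ranked, and it was also lower in rat smooth muscle (-6.13) and epithelium (-2.86). Npnt, encoding nephronectin, a basement membrane ligand of integrin, was at 9.69 and 384 CPM (-4.32), with -3.34 in epithelium and -1.87 in smooth muscle.

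Wnt2, a ligand needed for lung specification and made by the lung mesenchyme, was lower in rat at 65.9 CPM (53.7 to 80.0) against 277 CPM (271 to 284). Its log2 difference was -1.92 in fibroblasts, -1.58 in smooth muscle and -0.30 in epithelium, where its thinned share was 0 in rat and 1.25% in mouse. Thinned to 5000 UMIs, 23.4% of rat fibroblasts (16.7 to 31.3) and 64.3% of mouse ones (62.3 to 66.4) had a Wnt2 UMI. Wnt2 thus differed more than Tcf21, the other defining gene of this type, whose difference was -0.44. Limch1, an actin-binding protein, was at 82.7 and 435 CPM (-2.26), and Cdo1, the cysteine dioxygenase, at 36.2 and 112 CPM (-1.40). Slc7a10, an amino acid transporter, was the exception at 35.5 and 11.6 CPM (1.08).

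Myofibroblast genes followed the same side. Of 11 markers 8 were measured, 5 at least 2-fold higher in mouse and 0 in rat, with a median of -1.36. That median was -0.99 in the smooth muscle gate and -0.11 in epithelium. No level in epithelium was required of the members. Thinned, 0% of rat and 1.52% of mouse epithelial cells had a Pdgfra UMI, and 0% and 0.97% had one of Hhip. The epithelial values of such members could hardly leave 0. Pdgfra, the receptor that marks these cells, was at 55.5 CPM in rat and 160 CPM in mouse (-1.38), and its thinned share of cells was 19.9% (13.6 to 27.4) and 45.2% (43.1 to 47.3). Hhip, a decoy receptor that binds hedgehog ligands, was at 16.8 and 138 CPM (-2.47). Tgfbi, a secreted matrix protein, was at 17.4 and 101 CPM (-2.01), and Aspn, the small proteoglycan asporin, at 11.6 and 56.9 CPM (-1.63). Fgf18, at 13.6 and 14.7 CPM, hardly differed.

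The lipofibroblast list, genes of lipid storage and handling, had 8 of 17 members measured, 4 higher in mouse and 1 in rat, with a median of -0.89. This median was -1.18 in the smooth muscle gate and -0.02 in epithelium. Apoe, the lipid carrier, was at 135 CPM in rat and 733 CPM in mouse (-2.36), and it was lower in rat epithelium as well (-1.62). Lpl, the lipoprotein lipase, was at 3.88 and 27.5 CPM (-1.43). Plin2, the lipid droplet coat protein, was at 165 and 259 CPM (-0.62), short of 2-fold. Fabp5, a fatty acid binding protein, was the member higher in rat, at 270 and 92.3 CPM (1.45), with -0.14 in epithelium.

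Adventitial genes went both ways. Of 11 markers 9 were measured, 3 higher in rat and 3 in mouse, with a median of 0.23. Clec3b, encoding tetranectin, a secreted plasminogen-binding protein, was at 721 CPM in rat (679 to 764) and 31.1 CPM in mouse fibroblasts (28.9 to 33.4), a difference of 4.15. The mouse gene lies on chromosome 9 at 123150946 to 123157432. Thinned to 5000 UMIs, 80.1% of rat cells (72.6 to 86.4) and 13.6% of mouse cells (12.2 to 15.1) had a Clec3b UMI. The share was 0 of 207 rat epithelial cells and 0.55% of mouse ones. Its difference was 3.32 in smooth muscle and 0.12 in epithelium, so the rat excess was present in both mesenchymal gates.

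Dpt, encoding dermatopontin, which binds decorin and collagen fibrils, was at 490 CPM in rat (455 to 526) and 36.8 CPM in mouse fibroblasts (34.5 to 39.3). Its difference was 3.42 in fibroblasts, 0.34 in smooth muscle and 0.09 in epithelium, and its thinned shares were 57.4% and 12.7% of fibroblasts. In epithelium these shares were 0.48% in rat and 0.42% in mouse, so the epithelial value could hardly leave 0. Both Clec3b and Dpt were spread over most rat fibroblasts. The median rat fibroblast had 647 CPM of Clec3b and 237 CPM of Dpt, and the median mouse fibroblast had 0 of each. Pi16, a marker of a fibroblast type shared by many organs, was at 12.3 and 1.06 CPM (1.01). On the mouse side, Dcn, the proteoglycan decorin, was at 56.2 and 139 CPM (-1.17), and Sfrp2, a secreted Wnt modulator, at 3.88 and 38.7 CPM (-1.81). Lum, the proteoglycan lumican, was at 0 in rat and 20.1 CPM in mouse, at least 10.4-fold lower in rat at the floor of 3 counts over the group. Placed at that floor, it left the list's median at 0.23. Col14a1, the usual adventitial collagen, was at 264 and 281 CPM, within 2-fold.

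**Figure D3:**
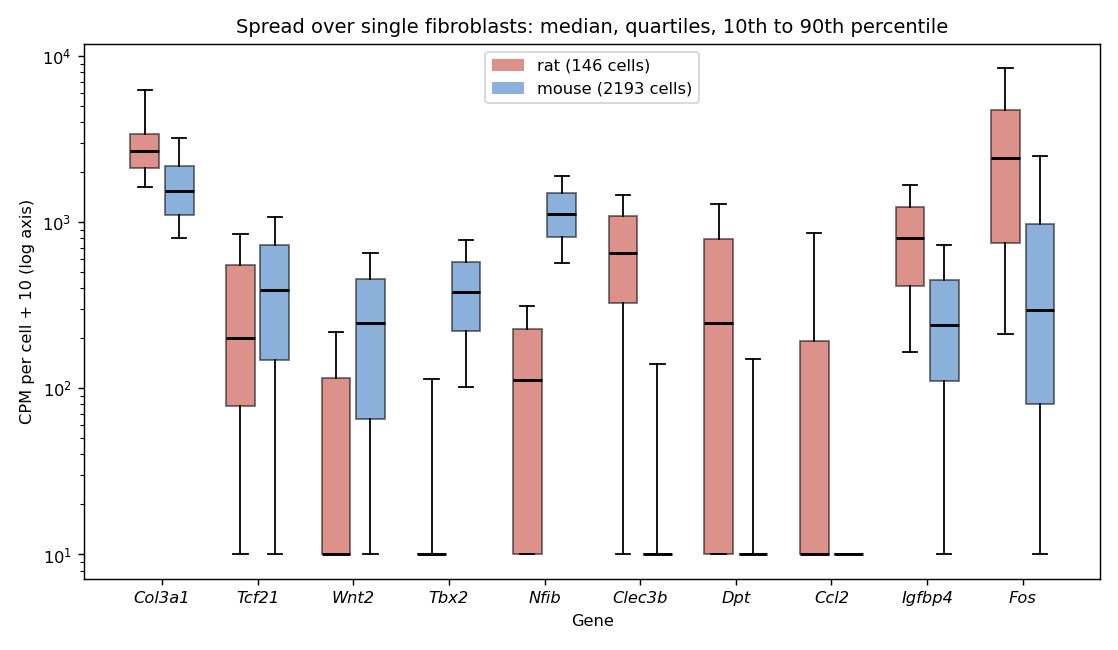
Level per cell of 10 genes, in CPM + 10 on a log axis, for 146 rat and 2193 mouse fibroblasts; boxes give median and quartiles over cells, whiskers the 10th and 90th percentiles. Boxes of rat and mouse cells overlap for Tcf21 and lie apart for Tbx2 and Nfib, which are high in mouse, and for Clec3b, which is high in rat.

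Some pericyte genes were higher in the rat gate, and so was the share of cells that passed a sum of pericyte markers. Of 13 markers 11 were measured, 4 higher in rat and 0 in mouse, with a median of 0.71. The other 7 were within 2-fold, the lowest at -0.65. At least 3 UMIs of Cspg4, Notch3, Kcnj8 and Higd1b together were found in 28 of 146 rat cells (19.2%, 13.1 to 26.5) and 126 of 2193 mouse cells (5.75%, 4.81 to 6.80). Without those cells and the mouse cells with mesothelial markers, the median was -0.33. Cox4i2, a hypoxia-linked subunit of cytochrome oxidase made by pericytes, was at 468 CPM in rat and 38.0 CPM in mouse (3.32). It was found in 46.6% of rat and 11.5% of mouse cells, and its difference without the marker-bearing cells was 2.17. Kcnj8 and Abcc9, which form the potassium channel of mural cells, were at 77.5 and 11.8 CPM (2.0) and at 80.7 and 9.89 CPM (2.19). Without the marker-bearing cells these were 1.70 and 2.33, so the Abcc9 difference was no smaller without them. Cspg4, the pericyte proteoglycan NG2, was at 53.0 and 17.8 CPM (1.18), and at 0.47 without them. Notch3, also in the sum above, went the other way, with a UMI in 13.7% of rat and 23.99% of mouse cells. Its thinned shares were 7.09% and 12.4%, with overlapping intervals. Cspg4 and Kcnj8 were among the genes that picked the cells left out, so lower values for them and for the list without those cells follow from that choice.

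Muscle genes, some of which set the gate, were mixed. Of 12 in the smooth muscle list 10 were measured, 3 higher in rat and 3 in mouse (median 0.75). The mouse calls included the gate gene Myh11 (-1.32) and Hhip, counted above with the myofibroblast markers. Another gate gene, Actg2 (0.72), entered the median, so the count and median rest partly on genes that chose the cells. Des, encoding the filament desmin, was at 247 CPM in rat and 42.9 CPM in mouse (2.28), against 0.14 in the smooth muscle gate. Myl9, a myosin light chain, was at 360 and 105 CPM (1.69), and at 0.69 without the pericyte-marker cells. Acta2, smooth muscle actin, was at 328 CPM in rat and 969 CPM in mouse (-1.53). The median mouse cell had 746 CPM of Acta2 and the median rat cell had 0, whereas in the smooth muscle gate the 2 species were level (0.04).

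Among fibrillar collagens 5 of 6 measured, and among other collagens 5 of 8, were within 2-fold, where 20.6% of all genes were past it. Of 11 fibrillar collagens 6 were measured, 2 of them the gate genes Col1a1 and Col3a1, whose levels chose the cells, 0 higher in rat and 1, Col27a1, in mouse (median -0.33). Col5a1 and Col5a2, which nucleate type I fibrils, were at 119 and 189 CPM (-0.63) and at 240 and 305 CPM (-0.34). Of 16 other collagens 8 were measured, 1 higher in rat and 2 in mouse (median -0.38). Col25a1, a membrane-bound collagen, was at 5.17 CPM in rat and 139 CPM in mouse (-3.30), with -0.68 in smooth muscle and -0.14 in epithelium. Its thinned share of epithelial cells was 0% in rat and 0.42% in mouse, so the epithelial value could hardly leave 0. Col6a1, of the beaded-filament collagen VI, was at 250 and 686 CPM (-1.42), while its partner chain Col6a2, at 526 and 677 CPM (-0.36), was within 2-fold. Col26a1 was the member higher in rat, at 42.0 and 10.4 CPM (1.35).

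Collagen processing genes had 19 of 25 members measured, 2 higher in rat and 1 in mouse (median 0.23). P4ha2, a prolyl hydroxylase subunit that stabilises the triple helix, was at 84.6 and 13.4 CPM (2.02), with -0.07 in epithelium. Pcolce, which speeds the cleavage of procollagen, was at 278 and 110 CPM (1.26). Lox, the enzyme that cross-links collagen and elastin, was at 470 and 446 CPM (0.08) in fibroblasts, where the epithelial difference was 2.21. Serpinh1, the collagen chaperone, was at 918 and 1028 CPM; the 3 calls among 19 genes were a share near that of all genes (20.6%).

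Elastic fibre genes had 16 of 18 members measured, 1 higher in rat and 2 in mouse (median 0.08). Eln, encoding tropoelastin, was at 1035 CPM in rat and 1140 CPM in mouse (-0.14). Fbn1 and Fbn2, the fibrillins, were at 444 and 261 CPM (0.74) and at 158 and 219 CPM (-0.45). Fbln5, which brings elastin to the fibre, was at 231 and 54.2 CPM (1.91) and ran the other way in epithelium (-1.24). Mfap4, given above, and Ltbp2 were the members higher in mouse. Eln and the fibrillins were within 2-fold, as were 13 of the 16 members measured. The share past 2-fold was thus near that of all genes (20.6%).

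Basement membrane genes had 16 of 20 members measured, 1 higher in rat and 4 in mouse (median -0.31). Lama5, a laminin chain, was at 53.0 and 15.9 CPM (1.28), and Lamc1, another, at 58.1 and 168 CPM (-1.39), a difference equal to that in epithelium (-1.39). Proteoglycan genes had 18 of 22 measured, 3 higher in rat and 7 in mouse (median -0.05, the same with Lum at the floor). Ogn, the small proteoglycan osteoglycin, was at 82.7 and 294 CPM (-1.72), and Sdc2, a syndecan, at 367 and 169 CPM (1.07). Vcan, the large proteoglycan versican, was at 199 and 361 CPM (-0.83) where rat epithelium was the higher one (1.45).

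Matricellular genes, which modulate adhesion without forming fibres, had 12 of 25 members measured, 2 higher in rat and 2 in mouse (median -0.13). Postn, encoding periostin, was at 172 CPM in rat (152 to 194) and 28.9 CPM in mouse (26.8 to 31.1), a difference of 2.23. It was found in 19.9% of rat and 9.17% of mouse cells. Without the cells with pericyte or mesothelial markers its difference was 0.59, and without cells with a UMI of Mki67 or Top2a it was 0.35. Ccn2, a target of TGF-beta and YAP, was at 132 and 34.7 CPM (1.67), and was higher in rat in epithelium (3.06) and smooth muscle (2.63) too. Thbs1, thrombospondin, was at 67.2 and 228 CPM (-1.63). The protease list had 18 of 21 measured, 1 higher in rat and 4 in mouse (median -0.05). Timp1, a metalloprotease inhibitor, was at 254 and 29.4 CPM (2.74), and its rat excess was as large in epithelium (3.46) and smooth muscle (2.72). Adam12, a membrane metalloprotease, was at 14.2 and 72.9 CPM (-1.78).

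Among mesenchymal transcription factors the mouse side prevailed. Of 38 in the list 31 were measured, 11 higher in mouse and 2 in rat, against 13.9% and 6.68% of all genes. The list's median was -0.44, where that of all genes was -0.11. The median of the list's members was -1.18 in the smooth muscle gate and -0.24 in epithelium. Members absent from epithelium, such as Prrx2 with thinned shares of 0% in both species, could hardly leave 0 there. Tbx2, a T-box repressor that keeps lung mesenchyme dividing, was at 20.7 CPM in rat (14.1 to 29.2) and 396 CPM in mouse (388 to 404), a difference of -3.73. It lies on mouse chromosome 11 at 85832551 to 85841948. Its thinned share was 10.6% of rat fibroblasts (6.08 to 16.9) and 81.6% of mouse ones (79.9 to 83.2); the 10th percentile of mouse cells was 91.9 CPM and the 90th percentile of rat cells 104 CPM. The smooth muscle gate gave -3.71 and epithelium -0.57. Tbx3, a paralog, was at 44.6 and 118 CPM (-1.23). Tbx4 and Tbx5, which act in the early lung bud, were within 2-fold at 136 and 147 CPM (-0.10) and at 104 and 210 CPM (-0.95).

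Nfib, a nuclear factor needed for lung maturation, was at 129 CPM in rat (111 to 148) and 1157 CPM in mouse (1144 to 1171), a difference of -3.07. Its differences were close to this in smooth muscle (-2.76) and epithelium (-2.89). Mouse Nfib in rat fibroblast droplets was 24.1% of its level in mouse fibroblasts, where the median over genes at 50 CPM or more was 3.04%. The part of misassigned reads in the Nfib difference was not tested. Tcf4, Mef2c and Meis2 were at 57.5 and 262 CPM (-2.01), 14.9 and 78.1 CPM (-1.82) and 27.1 and 110 CPM (-1.69). The 2 factors higher in rat were Foxf1, a hedgehog target of lung mesenchyme, at 234 and 99.9 CPM (1.15), and Prrx2 at 83.3 and 34.5 CPM (1.07). Without the pericyte-marker and mesothelial-marker cells Foxf1 was at 0.94. Meox2, Hoxb5 and Meis1 were level.

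Hedgehog genes had 11 of 12 members measured, 4 higher in mouse and 1 in rat (median -0.85). The pathway's ligand comes from the epithelium and its receptors sit on the mesenchyme. Gas1, a co-receptor, was at 3.23 CPM in rat (1.05 to 7.54) and 72.2 CPM in mouse (68.9 to 75.7), a difference of -2.64, against -0.10 in epithelium. Thinned, 0% of rat and 0.14% of mouse epithelial cells had a Gas1 UMI, so its epithelial value could hardly leave 0. The decoy receptor Hhip and the factor Gli3 (10.3 and 56.0 CPM, -1.70) were also higher in mouse. Ptch1, the receptor and a target of the pathway, was at 282 and 183 CPM (0.59), and Gli1, another target, at 23.3 and 33.2 CPM (-0.38). Foxf1, also a target and given above, was the member higher in rat (1.15), so targets lay on no single side.

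Wnt genes had 21 of 32 members measured, 3 higher in rat and 6 in mouse (median -0.41). Beside Wnt2, the ligand Wnt5a was at 20.02 and 66.4 CPM (-1.35) and the co-receptor Lrp6 at 19.4 and 78.2 CPM (-1.59). Rspo2, a secreted amplifier of Wnt signals, was at 32.3 and 8.30 CPM (1.21), and Dkk2, a modulator of the same receptors, at 15.5 and 1.27 CPM (1.18). Axin2, the usual target, was at 35.5 and 61.6 CPM (-0.65), within 2-fold.

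FGF genes had 15 of 19 members measured, 2 higher in rat and 4 in mouse (median 0.20, which was -0.57 with the stricter species limits of 95% and 5%, -0.32 at a collagen sum of 60 or more and -1.18 with a filter of 50 CPM). Fgf10, the ligand that drives branching, was at 54.3 and 79.8 CPM (-0.48), and Fgf7 at 12.3 and 36.3 CPM (-1.06). The receptors Fgfr1 (24.5 and 68.4 CPM, -1.18) and Fgfr3 (9.69 and 59.3 CPM, -1.82) were higher in mouse, each by about as much as in epithelium (-1.20 and -1.68). Response genes were split. The factor Etv4 was higher in rat at 42.6 and 7.19 CPM (1.61), as was the phosphatase Dusp6 at 94.3 and 39.0 CPM (1.09), while Spred1, a feedback inhibitor, was higher in mouse at 21.3 and 87.5 CPM (-1.64). Dusp6 was also higher in rat epithelium (1.53).

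BMP and TGF-beta genes had 27 of 36 members measured, 4 higher in rat and 3 in mouse (median -0.21). Fst, encoding the activin antagonist follistatin, was at 58.8 CPM in rat (47.3 to 72.2) and 0.45 CPM in mouse (0.22 to 0.80), a difference of 2.72, with 2.49 in smooth muscle. The mouse value rested on 11 UMIs over all 2193 cells, and mouse Fst in rat droplets was 1229% of it per droplet. Bmp4, the ligand, was at 107 and 104 CPM, and Id1 and Id3, targets of BMP signalling, were within 2-fold. The receptors Tgfbr2 (33.6 and 89.8 CPM, -1.20) and Bmpr1a (25.8 and 71.7 CPM, -1.19) were higher in mouse. The PDGF list had 4 of 7 measured, 1 on each side (median -0.56), Pdgfra in mouse and Pdgfrb in rat. Pdgfrb, the mural receptor, was at 142 and 54.6 CPM (1.23), and at 0.91 without the marker-bearing cells.

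Notch genes had 9 of 15 members measured, 1 higher in rat and 0 in mouse (median -0.21). The member was Nrarp, a feedback inhibitor, at 36.8 and 5.23 CPM (1.62), and at 0.27 without the marker-bearing cells. Hippo genes had 15 of 18 measured, 0 higher in rat and 4 in mouse (median 0.09). These were the effectors Yap1 (8.40 and 49.8 CPM, -1.70) and Wwtr1 (29.7 and 114 CPM, -1.64), their partner Tead1 (18.1 and 140 CPM, -2.42) and Amotl1. All 4 were at least 2-fold lower in rat epithelium as well. Retinoic acid genes had 10 of 19 measured, 2 higher in rat and 0 in mouse (median -0.04). Aldh1a1 and Aldh1a2, which make retinoic acid, were at 33.6 and 5.72 CPM (1.47) and at 60.7 and 21.9 CPM (1.15). Aldh1a1 was at 0.57 with the stricter species limits. Aldh1a2 was at 2.97 without the marker-bearing cells and at 0.64 with the same gate genes for both species. Glucocorticoid genes had 13 of 19 measured, 1 higher in rat and 4 in mouse (median -0.49). Nr3c1, the receptor that matures the lung before birth, was at 67.2 and 176 CPM (-1.27), against -0.07 in epithelium. Per1, a clock gene that the receptor induces, was at 6.46 and 54.8 CPM (-1.98).

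Genes of the IGF axis went both ways. Of 28 IGF and fetal growth genes 22 were measured, 6 higher in each species, with a median of -0.03. Igf2, the fetal growth factor, was at 167 CPM in rat (147 to 188) and 10.9 CPM in mouse (9.64 to 12.3), a difference of 3.08. The rat excess was of like size in epithelium (3.23) and smooth muscle (3.68). Igf1, the other ligand, was at 220 and 114 CPM (0.89), within 2-fold. Igf1r, the receptor of both, was at 5.17 and 137 CPM (-3.27), with -2.87 in epithelium.

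The binding proteins, which hold IGFs outside the cell, were split, 3 higher in rat and 2 in mouse of 5 measured. Igfbp3 was at 155 CPM in rat (136 to 176) and 3.72 CPM in mouse (2.99 to 4.57), a difference of 3.59, with 2.74 in smooth muscle and 1.69 in epithelium. Its rat level came from 28.1% of the cells. Igfbp4 was at 844 and 294 CPM (1.49), and the median cell had 798 CPM in rat and 232 CPM in mouse. Igfbp7 was at 563 and 111 CPM (2.25), and was the other way in epithelium (-0.43). Igfbp5 was at 28.4 and 110 CPM (-1.65), and at -0.46 without the marker-bearing cells and -0.64 with the stricter species limits.

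Dlk1, an imprinted membrane protein that holds back fat cell formation, was at 58.8 CPM in rat (47.3 to 72.2) and 790 CPM in mouse (779 to 801), a difference of -3.54. It was found in 10.96% of rat and 78.1% of mouse fibroblasts, and its highest single rat cell had 1360 CPM. Without the pericyte-marker and mesothelial-marker cells the difference was -5.18. Ptn, encoding the growth factor pleiotrophin, was at 310 and 105 CPM (1.48) in fibroblasts and ran the other way in epithelium (-1.94). Mdk, its relative midkine, was at 849 and 987 CPM (-0.22). The imprinted genes Mest, Grb10, Peg3 and Cdkn1c were within 2-fold.

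Secreted immune genes were few and split. Of 24 chemokines, cytokines and complement genes 11 were measured, 4 higher in rat and 3 in mouse (median -0.52). Ccl2, a chemokine that draws monocytes, was at 314 CPM in rat (287 to 343) and 15.9 CPM in mouse (14.3 to 17.5), a difference of 3.65. It was near 0 in difference in smooth muscle (-0.30) and epithelium (0.04). In epithelium its thinned share was 0.48% in rat and 0% in mouse, too low for a difference to show. Its thinned share was 32.6% of rat fibroblasts (24.97 to 41.0) and 3.12% of mouse ones (2.42 to 3.95), and the rat cells ranged from 0 to 6609 CPM. Cxcl1, which draws neutrophils, was at 178 and 10.8 CPM (3.17), and its rat excess was as large in epithelium (3.45). Complement C7 was at 22.6 and 1.06 CPM (1.56). On the mouse side, Cxcl12, the stromal homing factor, was at 9.04 and 51.7 CPM (-1.70) and Serping1, the C1 inhibitor, at 51.0 and 141 CPM (-1.30). The adhesion list had 15 of 24 measured, 1 higher in rat and 3 in mouse (median -0.25). Itga4, an integrin chain, was at 70.4 and 8.09 CPM (2.15), and Vcam1, the ligand of that integrin, at 84.0 and 239 CPM (-1.41).

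Immediate early genes respond within minutes to stimuli that include tissue dissociation, and most measured ones were higher in rat. Of 21 in the list 18 were measured, 10 higher in rat and 3 in mouse, with a median of 1.24. Fos was at 3359 CPM in rat (3269 to 3452) and 875 CPM in mouse (863 to 887), a difference of 1.93, and the median cell had 2437 CPM in rat and 288 CPM in mouse. Fosb was at 768 and 227 CPM (1.72), Egr1 at 1276 and 404 CPM (1.64) and Ier3 at 351 and 94.0 CPM (1.80). Jun and Jund were level, at differences of -0.03 and 0.12. Klf2 was lower in rat at 5.17 and 84.2 CPM (-2.63), as was Socs3 (-2.22). The list's median was 0.81 in epithelium and 0.61 in smooth muscle, so rat cells of these gates were on the same side. With stricter species limits of 95% and 5%, which leave 25 rat cells, it was 0.20.

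Of 24 heat-shock and unfolded protein genes 22 were measured, 3 higher in rat and 2 in mouse (median 0.02). The share past 2-fold was near that of all genes (20.6%). Hspb1, a small heat-shock protein, was at 2882 and 570 CPM (2.32), with -0.62 in epithelium, and the median cell had 2102 CPM in rat and 198 CPM in mouse. Hspa1b, an inducible chaperone with a near-identical neighbour that makes its counts uncertain, was at 1410 and 376 CPM (1.88). Xbp1, a factor of the unfolded protein response, was at 12.9 and 102 CPM (-2.28). Hsp90aa1, a chaperone, was also higher in mouse (-1.04), and the median cell had 340 CPM in rat and 577 CPM in mouse. The higher mitochondrial share of rat cells given above stands beside these stress genes, and its part in them was not tested.

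The shares of dividing cells had overlapping intervals. A UMI of Mki67 or Top2a was found in 45.2% of rat (37.0 to 53.6) and 49.9% of mouse fibroblasts (47.8 to 52.0). Thinned, the Mki67 share was 34.8% (26.9 to 43.2) and 34.4% (32.4 to 36.4). G2 and M phase genes had 23 of 24 members measured, 0 higher in rat and 2 in mouse (median 0.26), and S phase genes had all 20 measured, 0 higher in rat and 3 in mouse (median 0.01). Both lists held a smaller share of calls than all genes (20.6%). Cell cycle inhibitors and G1 cyclins had 17 of 19 measured, 3 higher in rat and 1 in mouse (median -0.21). Ccnd1, the cyclin of early G1, was at 121 and 22.2 CPM (2.03), against 0.38 in epithelium and -1.0 in smooth muscle. Cdk6, a kinase that D cyclins activate, was at 16.1 and 72.1 CPM (-1.65).

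Metabolic lists lay on the rat side of the median of all genes by small amounts. Nuclear oxidative phosphorylation genes had 53 of 72 members measured, 7 higher in rat and 0 in mouse (median 0.30). Hypoxia and glycolysis genes had 20 of 25 measured, 3 higher in rat and 2 in mouse (median 0.55). Vegfa, the endothelial growth factor, was at 207 and 97.2 CPM (1.02), and Pgk1, a glycolytic kinase, at 286 and 112 CPM (1.28). Tpi1 and Pkm, enzymes of the same pathway, were at 7.10 and 188 CPM (-3.54) and 21.96 and 201 CPM (-2.72), with lower values still in epithelium (-4.74 and -4.18). Cholesterol synthesis genes had 21 of 22 measured, 3 higher in rat and 1 in mouse (median 0.01). Idi1, Fdps and Sqle were higher in rat by 2.11, 1.74 and 1.44, and by 2.10, 1.91 and 1.79 in epithelium.

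**Figure D4:**
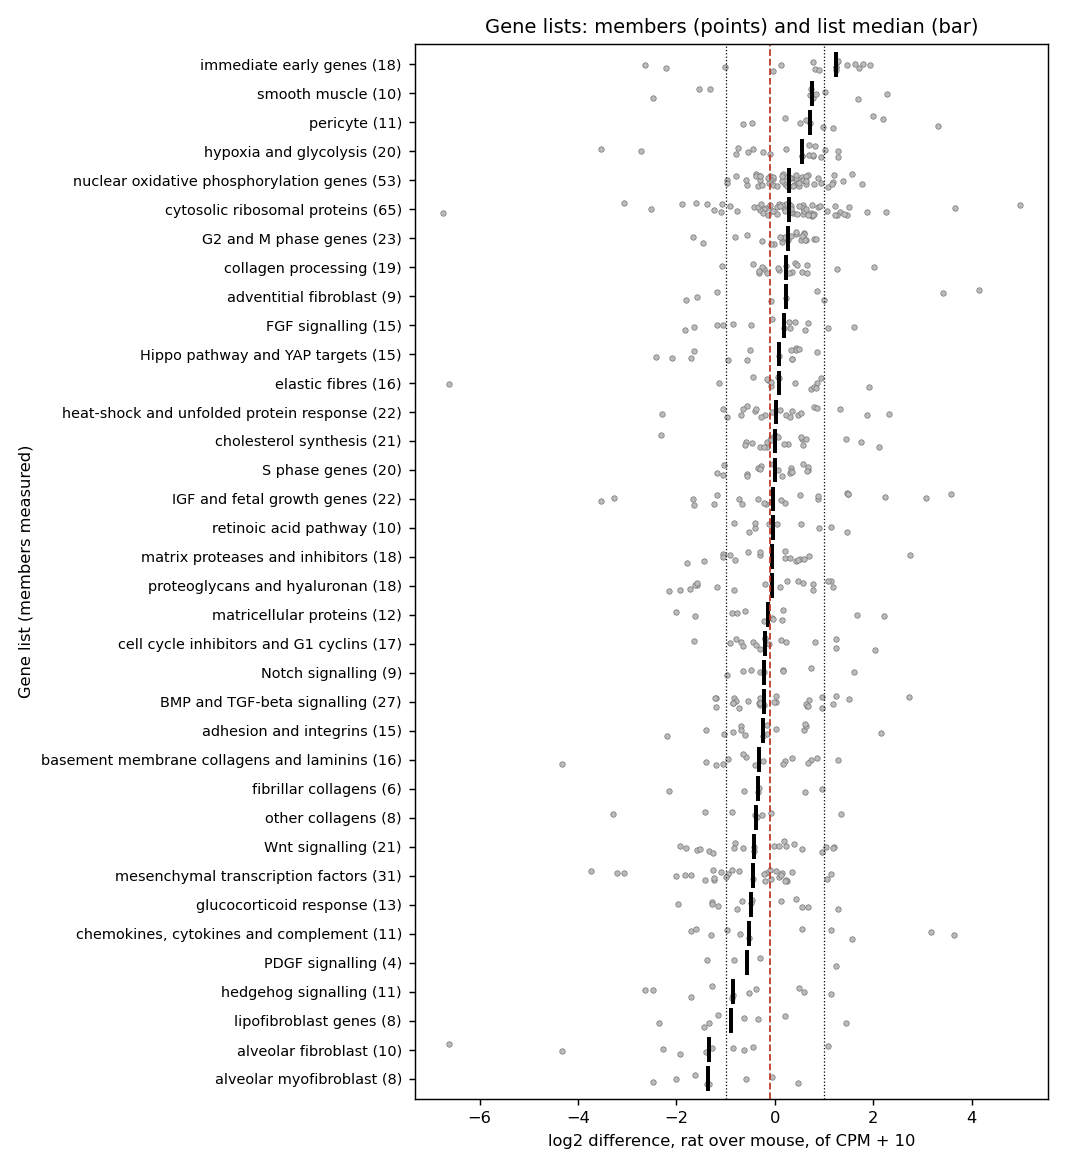
Log2 difference of rat over mouse fibroblasts (x axis) for the members of 36 gene lists, with the number measured in brackets; bars are list medians, the dashed line is the median of all 8218 genes (-0.11) and dotted lines mark 2-fold. Of the lists shown, immediate early genes have the highest median (1.24), and alveolar fibroblast and myofibroblast markers have the lowest (-1.34 and -1.36).

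Among the widest gaps, some were of like size in epithelium and some were not. Of the 10 genes highest in rat, Gng10, a G protein subunit, was at 639 and 1.962 CPM (5.76) and Nme2, a nucleoside diphosphate kinase, at 1207 and 19.5 CPM (5.36). In epithelium these were 4.63 and 5.83. Zbed5, Cd48, Tmsb15b2, Ube2s and Nutf2 (4.17 to 3.72 in fibroblasts) were at 3.23 to 4.63 in epithelium as well. Of the 10, Clec3b and Gstt3, a glutathione transferase at 147 and 1.39 CPM (3.79), were within 2-fold in epithelium, and Gstt3 was so in smooth muscle too (0.87). Of the 10 highest in mouse, Ptma, the nuclear protein prothymosin, was at 41.3 and 4650 CPM (-6.50), Tmsb10, which binds actin, at 12.3 and 1739 CPM (-6.30), Sumo2, a protein modifier, at 3.88 and 672 CPM (-5.62) and H2az1, a histone variant, at 44.6 and 1924 CPM (-5.15). In epithelium these were -7.34, -4.90, -5.89 and -5.41. Gng11, Sh3bgrl, Tle5 and Lars2, at -4.79 to -3.97, made up the 10 with Mfap4 and Npnt. Their gaps in epithelium were smaller except for Tle5, with Gng11 at -1.42, Sh3bgrl at -3.06, Tle5 at -5.11 and Lars2 at -2.51. Ptma, Tmsb10, Sumo2 and Nme2 have near-identical copies in these genomes, so their counts are uncertain.

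Cytosolic ribosomal protein genes showed the same. Of 80, 65 were measured, 12 higher in rat and 9 in mouse (median 0.29). Rpl9 (-6.74), Rpl37 (-3.06) and Rpl30 (-2.51) were lower in rat, and Rpl24 (3.66) and Rpl15 (2.26) higher. In epithelium these were -6.76, -3.33, -2.67, 3.67 and 2.11. Genes of 1 complex thus lay far apart within a cell type, and these 5 lay at like values in another. These genes too have near-identical copies, and their counts are uncertain.

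Genes with at least 50 CPM in both gates were also ranked by their difference in fibroblasts less that in epithelium. Ctsh, Cox4i2 and Hopx led on the rat side. Ctsh, the lysosomal protease cathepsin H, was at 114 and 20.9 CPM (2.01) in fibroblasts and at -3.83 in epithelium. Hopx, a homeodomain cofactor, was at 168 and 14.7 CPM (2.85), against -1.86. Fbln5, Hspb1 and Igfbp7, given above, followed with Ifitm3, an interferon-induced membrane protein, at 785 and 193 CPM (1.97), and Rgcc, a cell cycle regulator, at 168 and 7.93 CPM (3.31). Mouse Ctsh and Rgcc in rat droplets were 58.7% and 54.2% of their levels in mouse fibroblasts. Ctsh differed by more in epithelium than in fibroblasts, so its rank rests largely on epithelium. Thinned, 24.6% of rat and 93.5% of mouse epithelial cells had a Ctsh UMI, and 20.8% and 64.1% had one of Hopx. On the mouse side stood Mfap4, Dlk1, Vcan and Lox with Fcgrt, Nfkbia, Ndrg2 and Tmem176a. Of these, Fcgrt, Ndrg2 and Lox were level or up to 0.96 higher in rat fibroblasts, and entered by a rat excess in epithelium of 3.41, 3.16 and 2.21. Tmem176a, a membrane channel protein, was at 54.3 and 455 CPM (-2.85).

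RNA of the other species gave a level for what reaches a droplet from outside its cell or by misassigned reads. Over 3092 genes at 50 CPM or more in mouse fibroblasts, the mouse gene's UMIs in a rat fibroblast droplet were a median of 3.04% of those in a mouse fibroblast (quartiles 1.98 and 4.70). For 84 genes (2.72%) it was over 20%. Among them were Lars2 (120%), Sftpc (96.9%) and H2az1 (55.7%). In the other direction, over 2768 rat genes, the median was 0.542% and none passed 20%. With this background subtracted Lars2, a mitochondrial leucyl tRNA synthetase, was at 0.54 in place of -3.97 and H2az1 at -4.07. Clec3b was then at 4.10, Dpt at 3.36, Ccl2 at 3.60, Wnt2 at -1.97 and Tbx2 at -3.65, each near its value above. The subtraction only takes counts off and gives none back to the other species. It could thus not show how far misassigned reads make up a gap such as that of H2az1.

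**Figure D5:**
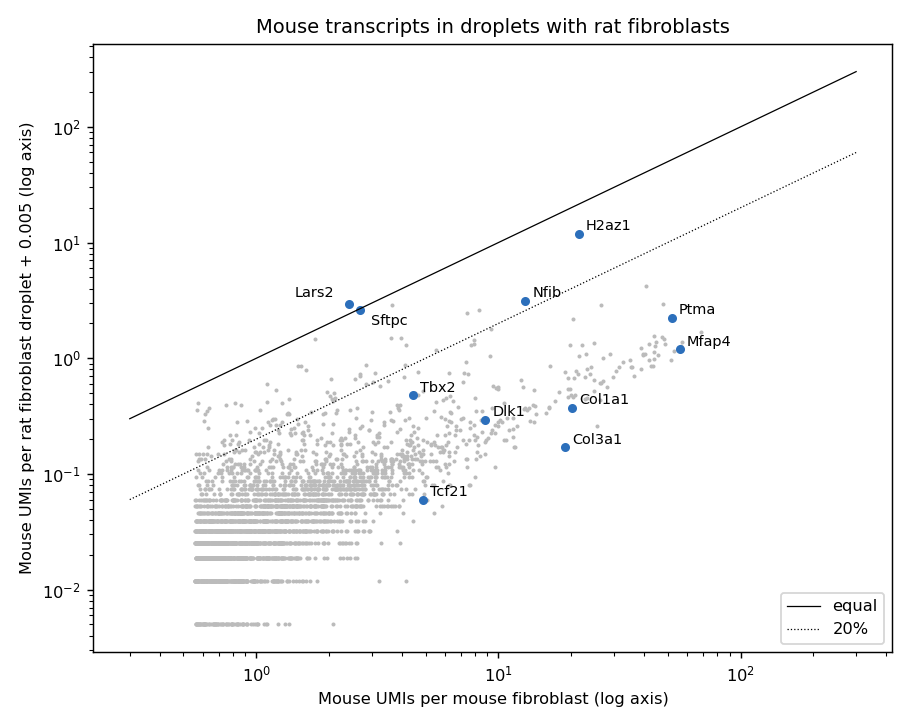
Mouse UMIs per mouse fibroblast (x axis) and per droplet of a rat fibroblast (y axis, + 0.005), both on log axes, for 3092 genes at 50 CPM or more in mouse fibroblasts. The solid line is equality and the dotted line 20%; Lars2 lies at the solid line, and Sftpc, H2az1 and Nfib above the dotted one, while Col1a1, Col3a1 and Tcf21 lie below it.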

How the data were processed

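The deposited matrix held the authors' raw counts of UMIs per gene and barcode, made with Cell Ranger 6.0.1 per the file headers. Builds mm10 and rn6 and Seurat 4.3 are named per the submitters' processing notes; whether intronic reads were counted is not given in the sources used here. Mouse positions came from the GENCODE annotation of mm10, and no rat annotation or sequence was used here. Values were computed with numpy 2.4.6, scipy 1.17.1, pandas 2.3.3 and scanpy 1.11.5. Of 9021 kept control barcodes 882 were mixed in species and left out. UMIs were summed over gated cells and divided by their own-species total. Where features shared a symbol, that with the most UMIs was used. Poisson intervals are exact. Doublets were scored with Scrublet and removed only as an alternative: at a score of 0.2 it marked 154 of 7414 mouse cells, 30 of them fibroblasts, and 0 rat cells.

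Genes were named by rule: the 10 largest differences each way at 100 CPM or more, the 8 largest each way in the difference between fibroblasts and epithelium, and up to 4 each way past 2-fold from each of 42 lists, without mitochondrial, ribosomal, globin and sex-linked genes in the rankings. Other list members are named as examples within 2-fold or as partners, chosen after their values were seen. Some genes that the rule names are left out of the text. The cells, lists and rule were chosen with earlier results of these data known. The scripts were tested on simulated counts. Alternatives numbered 15, of which 1, the gate without Col1a2 and Pecam1, was chosen after seeing the data.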

Additional observations from a re-analysis of the deposited data

How the results depend on the processing

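Over 15 alternatives, 127 of the 185 named genes past 2-fold stayed past it on the same side in all, and 182 stayed on the same side of 0. A pseudocount of 1 CPM gave 864 genes higher in rat and 1765 in mouse, and a filter of 50 CPM gave 356 and 601, of fewer genes tested; the other alternatives were within 1.5 times of 549 and 1140. TMM scaling shifted the median of all genes by 0.11 and the rat side of the calls from 32.5% to 41.7%. Named genes past 2-fold, and list medians of at least 0.25 in size, that changed side were these, and the cause was not tested. Species limits of 95% and 5%, with 25 rat cells, gave Ccl7 -0.50. The filter of 50 CPM gave list medians of 0.94 for chemokines, cytokines and complement, 0.14 for fibrillar collagens and 0.44 for glucocorticoid genes, from fewer members. A collagen sum of 60 or more, with 34 rat cells, gave 0.10 for chemokines. Subtracting free RNA gave Lars2 0.54. Without cells of pericyte or mesothelial markers, chemokines were at 0.30, pericyte genes at -0.33 and Col4a4 at 0.14. Without cells with Mki67 or Top2a, pericyte genes were at -0.28 and G2 and M phase genes at -0.67. Smaller values changed sign too: Tcf21 ranged from -0.52 to 0.05, Actg2 from -0.56 to 1.08 and Lox from -0.07 to 0.26, and so did the medians of the FGF (-1.18 to 0.45), Hippo (-0.54 to 0.21), S phase (-0.31 to 0.17), IGF (-0.17 to 0.16), cholesterol (-0.02 to 0.53), heat-shock (-0.13 to 0.14), protease (-0.42 to 0.07), proteoglycan (-1.0 to 0.06) and retinoic acid (-0.10 to 0.53) lists. Genes in the text that the rule named and that came within 2-fold under some alternative were, at their value nearest 0, Rspo2 0.18, Nrarp 0.27, Postn 0.35, Lama5 0.36, Foxf1 0.45, Cspg4 0.47, Myl9 0.55, Pdgfrb 0.56, Aldh1a1 0.57, Vegfa 0.61, Aldh1a2 0.64, Ier3 0.76, Pcolce 0.83, Pi16 0.90, Sdc2 0.99, Vcam1 -0.28, Dcn -0.42, Igfbp5 -0.46, Lyz2 -0.56, Hsp90aa1 -0.61, Sftpc -0.65, Ltbp2 -0.69, Tgfbr2 -0.79, Fgf7 -0.86, Myh11 -0.87, Krt19 -0.93 and Fgfr1 -0.97, with Slc7a10 and Pdgfra at the 2-fold line. Genes past 2-fold that the rule did not name, such as Cdo1, Tbx3, Mef2c, Meis2, Wnt5a and Ptn, were not followed over the alternatives. No paired analysis was possible because there was 1 library. With 1548273 UMIs over 146 rat cells, the floor of 3 counts used for a gene at 0 in rat was 1.94 CPM.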
